A study of Mus musculus with 16 samples.

Results

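The 36 genes described here encode the machinery of the nucleolus that transcribes ribosomal RNA (rRNA) and processes it. They were taken by name from the rows of a mouse gene table, by a rule that uses no measured value, and are 36 of the 29806 gene rows analysed. The list was nevertheless chosen with earlier results of these data known. All 36 had a row and all 36 passed the filter on low counts, as did 14179 genes in all. RNA was sequenced from bone marrow cells in 16 libraries, 4 per group. The groups were Jak2V617F haematopoietic stem cells (HSC), WT HSC, Jak2V617F MPP3 Fcgr(-) and WT MPP3 Fcgr(-), called MPP3 below. MPP3 are multipotent progenitors biased to myeloid cells, and Fcgr is the receptor family whose absence defined this fraction. Jak2V617F is the change that keeps the kinase JAK2 active without its cytokines and is known from myeloproliferative neoplasms. The labels state neither how the allele was introduced or driven, nor its dose, nor the age of the mice. The labels number the libraries 1 to 4 in each group and give that number as the batch. Whether each library is a separate animal is not stated, and a p therefore rests on the spread among libraries, which may be technical.

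A ribosome begins in the nucleolus, where RNA polymerase I copies the rRNA genes into a long precursor. Small nucleolar RNAs (snoRNAs) in protein complexes then guide its chemical modification: box C/D complexes methylate it, and box H/ACA complexes turn uridines into pseudouridines. Processing factors fold and cut the precursor into the small and the large subunit, and production of these factors is known to follow growth signals and the transcription factor MYC. Stem cells in the marrow are known for a low rate of protein synthesis compared with progenitors. The genes were grouped by role: 7 for RNA polymerase I and its initiation factors, 5 multifunctional nucleolar factors, 4 of box C/D and 4 of box H/ACA complexes, 7 of small-subunit and 9 of large-subunit maturation.

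Totals were 33372000 to 41520000 estimated counts a library, with 14439 to 16522 genes detected in each. The labels of the cell types could be followed in markers, though not in each one. CPM are counts scaled to a common library size, here by TMM. Slamf1, a stem cell marker, averaged 37.6 ± 3.10 CPM in Jak2V617F HSC and 39.8 ± 13.9 CPM in WT HSC (SD, n = 4 each). It had 2.44 ± 1.03 CPM in Jak2V617F MPP3 and 1.88 ± 0.759 CPM in WT MPP3. Hlf, another stem cell marker, did not separate Jak2V617F HSC (150.0 ± 6.04 CPM) from Jak2V617F MPP3 (147.8 ± 23.7 CPM). It had 265 ± 26.0 CPM in WT HSC and 192 ± 19.0 CPM in WT MPP3. Summed CPM of 6 MPP3 and early myeloid markers was 549 to 721 in Jak2V617F HSC and 632 to 829 in WT HSC. It was 4148 to 5530 in Jak2V617F MPP3 and 4204 to 6798 in WT MPP3. A point change in Jak2 cannot be seen in gene counts, so the genotype labels were not checked. The summed CPM of 9 stem cell markers was 1173 to 1243 in Jak2V617F HSC and 2338 to 2408 in WT HSC, and the groups did not overlap. That of 11 cell cycle genes was 4464 to 5923 in Jak2V617F HSC and 2758 to 3341 in WT HSC, again with no overlap. Of the other lists, 5 had no overlap between the genotypes in HSC. Summed CPM was higher for megakaryocyte markers (880 to 1326 in Jak2V617F HSC and 595 to 824 in WT HSC) and for T and NK cell markers (135 to 173 in Jak2V617F HSC and 63.7 to 93.5 in WT HSC). It was lower for erythroid markers (2979.8 to 3675 in Jak2V617F HSC and 3740.0 to 4567 in WT HSC), B cell markers (53.4 to 70.6 in Jak2V617F HSC and 72.2 to 95.3 in WT HSC) and monocyte and macrophage markers (1.896 to 5.06 in Jak2V617F HSC and 5.33 to 10.3 in WT HSC). Single genes made up most of the T and NK cell, B cell and erythroid sums. Nkg7 averaged 153 CPM in Jak2V617F HSC and 60.6 CPM in WT HSC, while Klrb1c went the other way (5.32 and 14.2 CPM). In the same order, Cd79b averaged 58.6 and 78.4 CPM and Car2 3153 and 4018 CPM. Hbb-bt went against the erythroid sum (66.3 and 45.0 CPM). A sum therefore need not stand for its cell type, and the part of these lists in the results on HSC was not tested. Mitochondrial genes took 1.20 ± 0.209% of the counts in Jak2V617F HSC and 1.78 ± 0.268% in WT HSC.

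Compared per length, the members spanned a wide range. Npm1, which encodes the nucleolar chaperone nucleophosmin, had the highest level, with a mean of 2104 TPM (transcript levels scaled by gene length and library size) over the 16 libraries. Nop56, a scaffold protein of box C/D complexes, followed with 468 TPM, the RNA-binding protein nucleolin (Ncl) with 441 TPM and the box H/ACA protein Nop10 with 428 TPM. At the low end were Utp20, a large scaffold of the small-subunit processome, with 5.48 TPM and the large-subunit factor Rrs1 with 5.07 TPM. All of the members were therefore detected in every group, and the catalytic subunits of the snoRNA complexes were among the higher ones: dyskerin (Dkc1), the pseudouridine synthase, had 289 TPM, and fibrillarin (Fbl), the methyltransferase, 230 TPM. The catalytic subunits of RNA polymerase I were lower, with 15.9 TPM for Polr1a and 35.5 TPM for Polr1b.

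Some members also carry snoRNA genes within their own span. In GENCODE M21 on GRCm38, 7 of the 36 genes (19.4%) contain an annotated snoRNA gene, against 238 of 13230 protein-coding genes tested (1.8%). Nop56 holds 5, Nop58 holds 4, Ncl, Gnl3 and Wdr43 hold 3 each, Tsr1 holds 2 and Dkc1 holds 1, 21 in all. This is a feature of the annotation; the snoRNAs themselves were not measured here.

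The promoters of the members were looked at for 2 sequence motifs that MYC and ETS factors are known to bind. RefSeq windows on GRCm38.p6, from 250 bases before to 50 bases after the annotated start, matched 31 of the 36 genes (39 windows); Bop1, Fbl, Npm1, Rrp12 and Rrs1 had none in the table used. The E-box CACGTG, which reads the same on both strands, was found in 6 of 31 member genes (19.4%), against 1215 of 10395 genes tested with such a window (11.7%). The ETS core CCGGAAG, searched on both strands and not overlapping the E-box, was found in 9 of 31 (29%), against 2042 of 10395 (19.6%). A match describes the letters of the window and does not show a site in use. The windows given are those of Dkc1 and Nhp2, the genes with a window among the members that were higher in Jak2V617F HSC, and of Rrn3, an initiation factor of RNA polymerase I, which had the most matches of these motifs. They are printed 5′ to 3′ on the gene's strand, and capitals mark an E-box or an ETS core.
Dkc1, chrX:75095604-75095903, plus strand: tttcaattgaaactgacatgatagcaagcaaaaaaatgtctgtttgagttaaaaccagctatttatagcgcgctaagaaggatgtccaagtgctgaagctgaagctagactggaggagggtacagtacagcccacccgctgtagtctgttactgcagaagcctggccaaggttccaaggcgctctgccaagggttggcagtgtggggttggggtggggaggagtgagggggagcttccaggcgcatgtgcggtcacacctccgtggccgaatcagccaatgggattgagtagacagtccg
Nhp2, chr11:51619523-51619822, plus strand: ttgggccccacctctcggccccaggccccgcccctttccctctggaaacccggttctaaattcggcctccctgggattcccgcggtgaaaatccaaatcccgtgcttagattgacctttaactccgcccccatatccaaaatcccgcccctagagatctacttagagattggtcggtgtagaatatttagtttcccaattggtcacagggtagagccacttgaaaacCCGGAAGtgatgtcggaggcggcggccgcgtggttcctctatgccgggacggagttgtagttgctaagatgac
Rrn3, chr16:13780449-13780748, plus strand: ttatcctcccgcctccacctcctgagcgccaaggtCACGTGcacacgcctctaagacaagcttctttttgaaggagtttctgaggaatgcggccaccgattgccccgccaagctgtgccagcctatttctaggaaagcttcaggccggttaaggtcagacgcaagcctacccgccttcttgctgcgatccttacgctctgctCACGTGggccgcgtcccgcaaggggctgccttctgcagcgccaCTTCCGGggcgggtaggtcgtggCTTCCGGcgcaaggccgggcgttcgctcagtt
The Dkc1 window held neither motif. The Nhp2 window held 1 ETS core, which begins at position -23 (the first transcribed base is 1). The Rrn3 window held 2 E-boxes, at -215 and -48, and 2 ETS cores, at -5 and 19.

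In HSC, Jak2V617F was compared with WT. Of the 36 members, 5 were higher in Jak2V617F HSC and 0 were lower (edgeR's quasi-likelihood test, Benjamini-Hochberg adjusted p under 0.05 over 14179 genes). At an unadjusted p under 0.05 there were 17 (47.2%), all higher, against 21.7% of all genes in either direction. DESeq2 called 12 members higher, and 1002 of all genes. Of all genes tested, 4.56% were called higher and 2.74% lower, so the members' share of 13.9% higher was above the background. The 5 were Rrp12, Dkc1, Fbl, Npm1 and Nhp2, and they come from 4 of the 6 roles: a small-subunit factor, the box H/ACA synthase and a partner, the box C/D methyltransferase and a nucleolar chaperone. The differences were small. The log2 fold changes of all 36 ran from -0.06 to 0.88 with a median of 0.28, and 35 of 36 were positive, while the median of all genes was -0.06 and 6244 of 14179 (44%) were positive. In bulk samples, more RNA of a gene per cell and a changed mix of cells within a fraction cannot be told apart.

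Rrp12, an export and maturation factor of pre-ribosomal particles, had 108, 115, 79.7 and 109.6 CPM in Jak2V617F HSC replicates 1 to 4, against 73.3, 40.4, 57.1 and 52.8 CPM in WT HSC. Every Jak2V617F library was above every WT library, with the closest pair at 79.7 and 73.3 CPM. The log2 fold change was 0.88 ± 0.20 (SE; edgeR adjusted p = 0.0138), the highest of the members. The gene (ENSMUSG00000035049) lies on chromosome 19, 41862851 to 41896173, minus strand (GRCm38). Its call held with each library left out in turn. With Npm1 and Nop14 it made 3 of 36 members (8.33%) whose groups did not overlap, a share near the 7.26% of all genes tested.

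The box H/ACA complex contributed Dkc1 (ENSMUSG00000031403, chromosome X, 75095854 to 75109777, plus strand) and Nhp2 (ENSMUSG00000001056, chromosome 11, 51619735 to 51623714, plus strand). Dkc1 had 364, 363, 281 and 365 CPM in Jak2V617F HSC, against 285, 221, 259 and 229 CPM in WT HSC. Replicate 3 was the low one of the Jak2V617F libraries and fell just below WT replicate 1, so the groups overlapped by that pair. The log2 fold change was 0.46 ± 0.11 (edgeR adjusted p = 0.0194). Nhp2, a core protein of the same particle, had 207, 262, 185 and 219.8 CPM in Jak2V617F HSC, against 198, 139.9, 132 and 136 CPM in WT HSC. Here WT replicate 1 stood above the other WT libraries and above Jak2V617F replicate 3. The log2 fold change was 0.53 ± 0.16 (edgeR adjusted p = 0.0498). The other partners had smaller differences that did not pass: Nop10, which holds the synthase in place, had 296, 348, 327 and 305 CPM in Jak2V617F HSC and 309, 298, 287 and 251 CPM in WT HSC (log2 fold change 0.16 ± 0.12, edgeR adjusted p = 0.511), and Gar1 had a log2 fold change of 0.22 ± 0.21. The Nop10 groups overlapped.

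**Figure D1:**
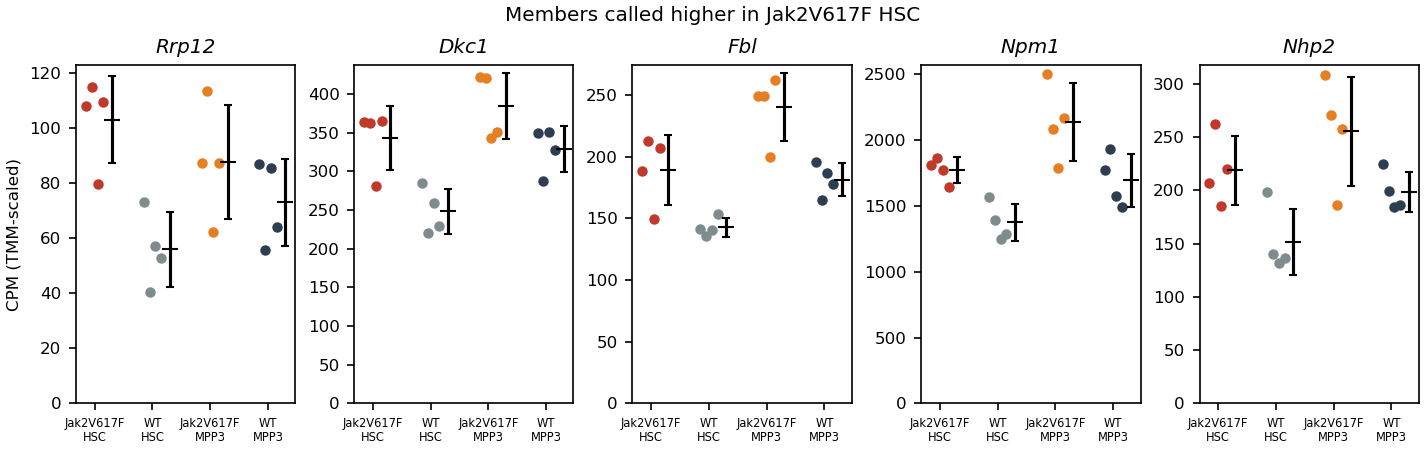
CPM (TMM-scaled, axis from 0) of the 5 members called higher in Jak2V617F HSC, in each library of the 4 groups (points, replicates 1 to 4 from left to right) with the group mean and SD (black bar). Rrp12 and Npm1 show no overlap between Jak2V617F HSC and WT HSC; in Dkc1, Fbl and Nhp2 replicate 3 of Jak2V617F HSC reaches into the range of WT HSC.

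Of the box C/D proteins, Fbl (ENSMUSG00000046865, chromosome 7, 28169710 to 28179269, plus strand) had 188, 212, 149 and 207 CPM in Jak2V617F HSC, against 141, 136, 141 and 154 CPM in WT HSC. Again 3 of the 4 Jak2V617F libraries were above all WT libraries and replicate 3 was not. The log2 fold change was 0.41 ± 0.11 (edgeR adjusted p = 0.0346). Fbl shares 690 bases at 99.6% identity with a transcript of Tulp4, so the authors' counting could have split reads between these genes, and its value is uncertain to that extent. Nop56 had 601, 554, 416 and 586 CPM in Jak2V617F HSC, against 445, 375, 439.97 and 470.3 CPM in WT HSC, and did not pass (0.32 ± 0.12, edgeR adjusted p = 0.11). Its scaffold partner Nop58 (0.14 ± 0.16) and the protein Rrp9 of the U3 particle (0.04 ± 0.16) had smaller values.

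Among the multifunctional nucleolar factors, Npm1 (ENSMUSG00000057113, chromosome 11, 33152287 to 33163206, minus strand) had 1812, 1867, 1776 and 1642 CPM in Jak2V617F HSC, against 1566, 1395, 1250.1 and 1291 CPM in WT HSC. The groups did not overlap, and the log2 fold change was 0.37 ± 0.11 (edgeR adjusted p = 0.0477). All 5 genes of this role had log2 fold changes within a narrow span, 0.37 to 0.47, and all 5 were under an unadjusted p of 0.05, but Npm1 alone passed the adjusted threshold. The other 4 had edgeR adjusted p between 0.0764 and 0.098: Ncl (0.38 ± 0.13), the snoRNA chaperone Nolc1 (0.47 ± 0.15), the GTPase nucleostemin (Gnl3, 0.37 ± 0.13) and the RNA helicase Ddx21 (0.40 ± 0.14).

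The polymerase and the subunit maturation factors gave few or no calls. None of the 7 RNA polymerase I genes passed (log2 fold changes 0.05 to 0.36), with Polr1e, a subunit of the initiation-competent enzyme, at 0.36 ± 0.13 (edgeR adjusted p = 0.115) and Rrn3 at 0.05 ± 0.11. Polr1d, the member of this role with the highest TPM, had 108, 121, 138 and 102 CPM in Jak2V617F HSC, against 111, 103, 101 and 87.2 CPM in WT HSC (0.22 ± 0.14), and the groups overlapped. Beside Rrp12, the small-subunit genes ranged from 0.05 (Nob1, the endonuclease that makes a final cut) to 0.49 (Bysl, edgeR adjusted p = 0.0848). Nob1 had 141, 163, 163 and 161 CPM in Jak2V617F HSC, against 168, 133, 163 and 141 CPM in WT HSC, which overlapped widely. None of the 9 large-subunit genes passed; Wdr12 came closest (0.30 ± 0.09, edgeR adjusted p = 0.058), and its partners in the PeBoW complex had 0.31 ± 0.12 (Pes1) and 0.18 ± 0.12 (Bop1). Rrp1 had the one negative value of the 36: 324, 364, 408 and 375 CPM in Jak2V617F HSC, against 353, 378, 414 and 391 CPM in WT HSC (-0.06 ± 0.09, edgeR adjusted p = 0.777). Tsr1 and Bysl overlap the genes Srr and Ccnd3 on the opposite strand by 1240 and 361 exonic bases, and no label says whether strand was kept, so their counts are uncertain.

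**Figure D2:**
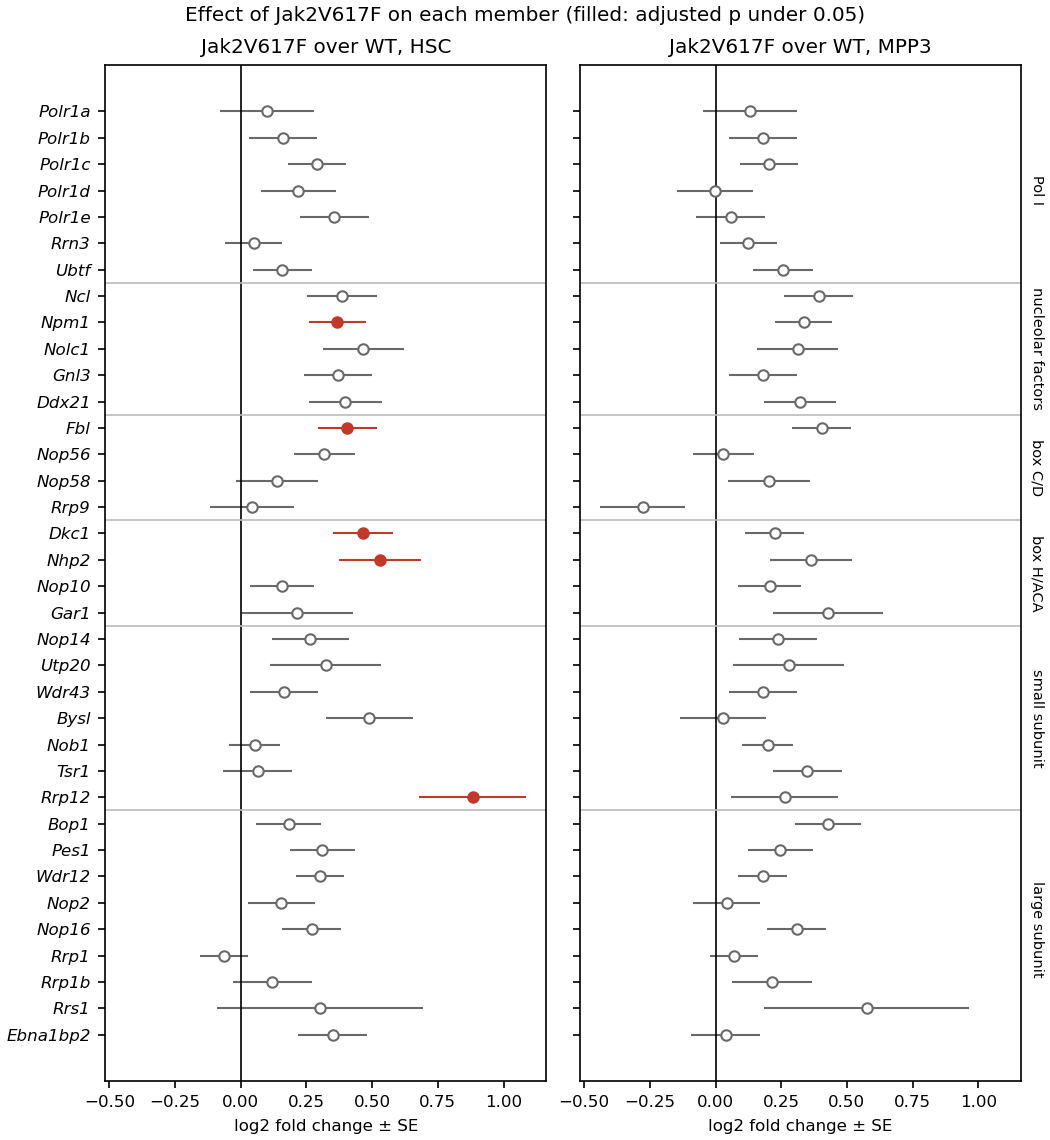
Log2 fold change ± SE (edgeR) of each of the 36 members, grouped by role, for Jak2V617F over WT in HSC (left) and in MPP3 (right); filled points have an adjusted p under 0.05. In HSC 35 of 36 points lie to the right of 0 and 5 are filled; in MPP3 34 of 36 lie to the right and 0 are filled.

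The level of the members also differed among the libraries of a group. The median over the 36 members of log2 CPM minus the WT HSC mean was 0.35, 0.44, 0.06 and 0.30 in Jak2V617F HSC, against 0.17, -0.11, 0.01 and -0.05 in WT HSC. Jak2V617F replicate 3 was thus below WT replicate 1, and the other 3 Jak2V617F libraries were above every WT library. Within batches, the median difference of Jak2V617F from WT was 0.20, 0.53, 0.03 and 0.33 in batches 1 to 4. The median over all genes was -0.035, -0.041, 0 and -0.045. Of the 36 members, 27, 35, 21 and 32 were positive in batches 1 to 4. In 13 of the 36 members it was positive in all 4 batches, and in Rrp1 in none. The matching share of all genes was not counted. The cell cycle genes were also lowest in replicate 3 among the Jak2V617F HSC libraries. Their summed CPM was 5644, 5439, 4464 and 5923 in Jak2V617F HSC replicates 1 to 4, against 3070.2, 2758, 3341 and 3030.2 in WT HSC. The summed CPM of 7 handling-response genes such as Fos was highest in replicate 1 of every group. It was 1330.1 in replicate 1 and 304 to 513 in the other replicates of Jak2V617F HSC, and 6578 in replicate 1 and 828 to 1398 in the others of WT HSC. In Jak2V617F MPP3 it was 856 in replicate 1 and 230.4 to 478 in the others, and in WT MPP3 3931 in replicate 1 and 328 to 711 in the others. Within every batch the handling sum was also higher in WT than in Jak2V617F, in HSC and in MPP3. For WT and Jak2V617F HSC it was 1398 and 513 in batch 2, 982 and 344 in batch 3, and 828 and 304 in batch 4. For WT and Jak2V617F MPP3 it was 711 and 478, 328 and 230, and 406 and 263 in the same batches. The part of cell cycle genes and of handling in the members' differences was not tested.

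**Figure D3:**
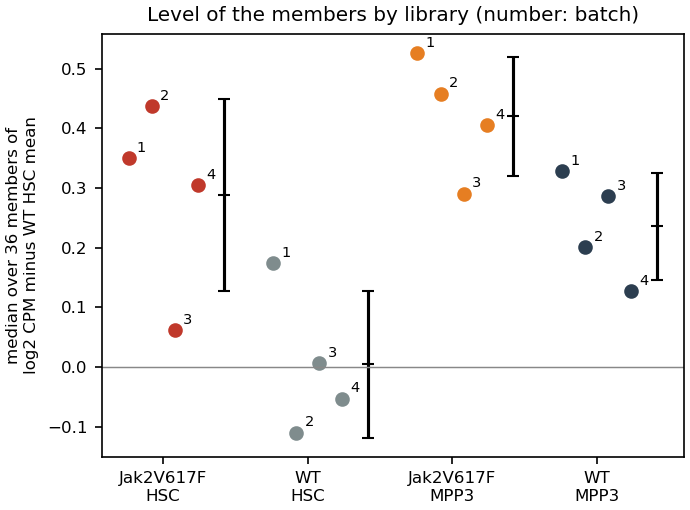
Median over the 36 members of log2 CPM minus the gene's WT HSC mean, for each library (points, numbered by batch), with the mean and SD over the 4 libraries of a group (black bar). Batch 3 has the lowest value in Jak2V617F HSC (0.06) and in Jak2V617F MPP3 (0.29).

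The number of calls depended on single libraries, over all genes as well as among the members. All genes called higher numbered 646 in the main fit and 422 to 939 with 1 library left out. Over the other alternatives they numbered 180 to 1002, with 180 when Jak2V617F HSC replicates 1 and 4 were both left out. With the batch as a replicate block, 9 members were called (Ncl, Nolc1, Gnl3 and Wdr12 joined the 5). All genes called higher in that fit lay within the 180 to 1002 above. The rise from 5 to 9 is therefore not read as a result about the members alone. Without Jak2V617F HSC replicate 3 the count of members was 16. Without WT HSC replicate 2 or 4, or without Jak2V617F HSC replicate 1, it was 1 (Rrp12), without WT replicate 3 or Jak2V617F replicate 2 or 4 it was 2 (Rrp12 and Dkc1), and without Jak2V617F replicates 1 and 4 together it was 0.

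**Figure D4:**
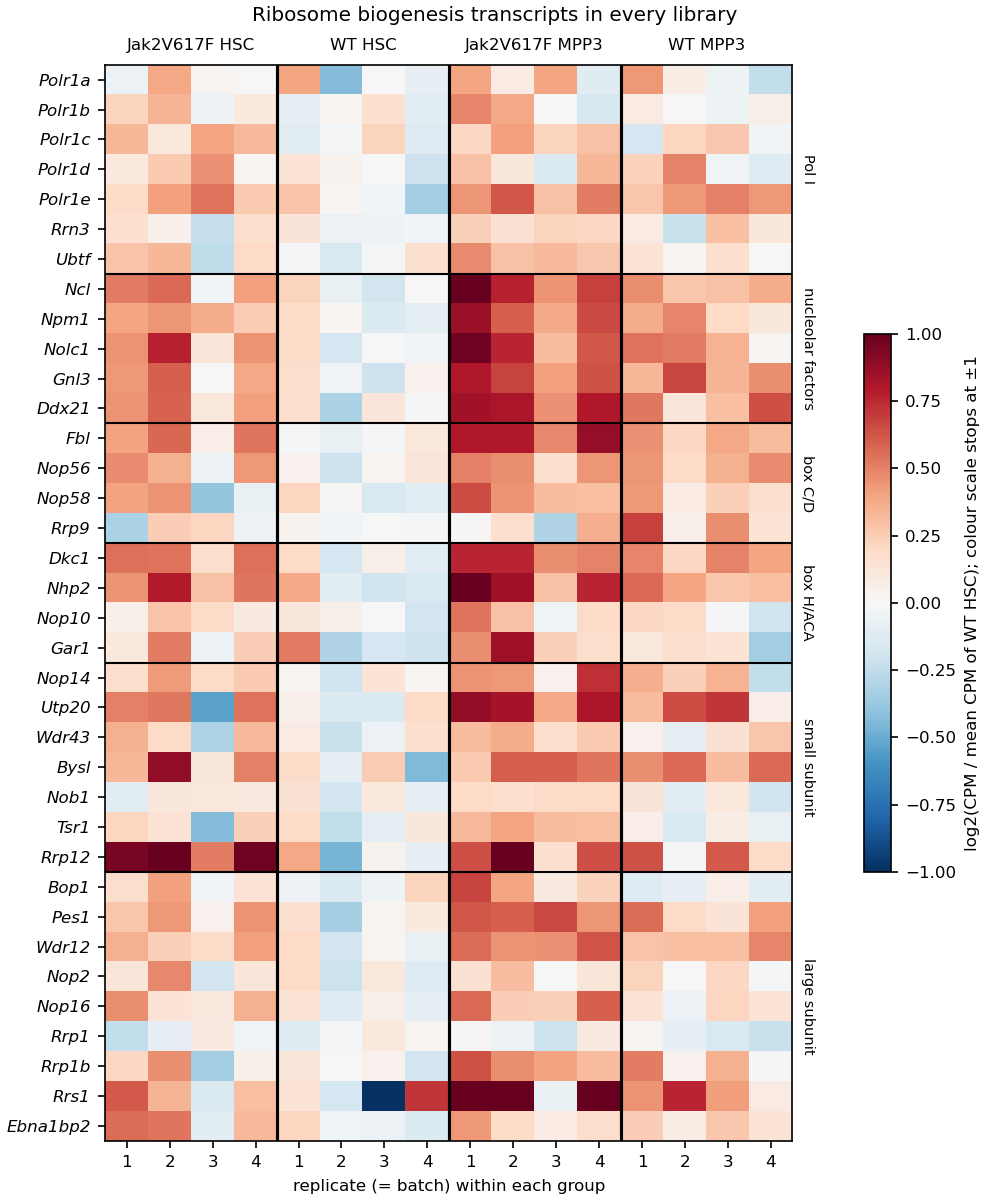
Log2 ratio of CPM to the mean CPM of WT HSC (colour, scale stops at ±1) for the 36 members (rows, by role) in the 16 libraries (columns, by group and replicate). Jak2V617F HSC is redder than WT HSC in most rows of replicates 1, 2 and 4 and paler in replicate 3, and Rrp12 has the strongest colour in Jak2V617F HSC.

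In MPP3 the same comparison gave no call: 0 of the 36 members were higher and 0 lower in Jak2V617F MPP3 (edgeR), and 9 (25%) had an unadjusted p under 0.05, against 13.8% of all genes. Few genes of any kind were called there, 0.0141% of all tested higher and 0.0494% lower. DESeq2 called 2 members higher and limma-voom 0. The fold changes were nevertheless mostly positive, 34 of 36, with a median of 0.21, against a median of -0.02 over all genes, of which 46.7% were positive. They ran from -0.28 (Rrp9) to 0.57 (Rrs1, with an SE of 0.39).

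Fbl had the smallest adjusted p, with 249, 249, 199.8 and 262 CPM in Jak2V617F MPP3, against 196, 165, 187 and 178 CPM in WT MPP3. All 4 Jak2V617F libraries were above all WT libraries, and the log2 fold change was 0.40 ± 0.11 (edgeR adjusted p = 0.137). Bop1, a large-subunit factor, followed with 0.43 ± 0.12 (edgeR adjusted p = 0.151). Npm1 had 2506, 2082, 1788 and 2171 CPM in Jak2V617F MPP3, against 1774, 1933, 1578 and 1491 CPM in WT MPP3, with overlap through replicate 3 (0.33 ± 0.11, edgeR adjusted p = 0.178). The groups did not overlap in 7 members (Ubtf, Fbl, Gar1, Nob1, Tsr1, Bop1 and Nop16), all higher in Jak2V617F MPP3; this was 19.4% of the members, against 3.65% of all genes tested.

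Of the genes called in HSC, Rrp12 had 87.3, 113, 62.4 and 87.4 CPM in Jak2V617F MPP3, against 87.0, 55.5, 85.6 and 64.0 CPM in WT MPP3, and the groups overlapped (0.26 ± 0.20). Dkc1 had 422, 421, 344 and 351 CPM in Jak2V617F MPP3, against 349, 287, 351 and 327 CPM in WT MPP3 (0.22 ± 0.11). Nhp2 had 308, 271, 186 and 258 CPM in Jak2V617F MPP3, against 224, 199, 184 and 186 CPM in WT MPP3 (0.36 ± 0.16). In these 3 genes replicate 3 was again the lowest Jak2V617F library. Of the highest members per role, Nop56 (0.03 ± 0.12), Polr1d (-0.0017 ± 0.14) and Rrp1 (0.07 ± 0.09) had values near 0, while Nop10 (0.21 ± 0.12) and Nob1 (0.20 ± 0.10) did not. Nob1 had 173, 169.8, 173 and 173 CPM in Jak2V617F MPP3, against 166, 140.4, 163 and 132 CPM in WT MPP3. Its Jak2V617F libraries lay within a few CPM of each other and above all 4 WT libraries.

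For the members highest in their roles, Nop56 had 613, 597, 488 and 589 CPM in Jak2V617F MPP3, against 588, 498, 555 and 599 CPM in WT MPP3. Nop10 had 416, 351, 277 and 327 CPM in Jak2V617F MPP3, against 329.8, 327, 283 and 249 CPM in WT MPP3. The groups overlapped in both, and the lowest Jak2V617F library was replicate 3. Rrp1 had 386, 370.4, 331 and 408 CPM in Jak2V617F MPP3, against 390.2, 362, 345 and 329 CPM in WT MPP3. Polr1d had 123, 109, 91.4 and 127 CPM in Jak2V617F MPP3, against 118, 142, 98.9 and 91.9 CPM in WT MPP3. Here too the ranges of the genotypes overlapped throughout.

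By library the median level of the members was 0.53, 0.46, 0.29 and 0.41 in Jak2V617F MPP3, against 0.33, 0.20, 0.29 and 0.13 in WT MPP3, on the same scale. Replicate 3 was equal between genotypes to 2 decimals, and in the other batches Jak2V617F was higher. The median differences within batches were 0.27, 0.29, 0.02 and 0.31. Over all genes, calls higher numbered 0 to 108 with 1 library left out, against 2 in the main fit. Without Jak2V617F MPP3 replicate 3 the count of members called higher was 2, and without both Jak2V617F libraries of batch 3 it was 3. With the replicate block it was 0, while over all genes 25 were higher and 57 lower. The summed CPM of the cell cycle genes was 5561 to 6571 in Jak2V617F MPP3, lowest in replicate 3, and 4654 to 5402 in WT MPP3. Stem cell markers summed to 424 to 625 CPM in Jak2V617F MPP3 and 649.7 to 849.8 CPM in WT MPP3, and monocyte and macrophage markers to 11.0 to 24.4 CPM in Jak2V617F MPP3 and 31.0 to 112 CPM in WT MPP3. None of these 3 sums overlapped between the genotypes, and their part in the members' levels was not tested.

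The effect of Jak2V617F was then compared between the cell types, as MPP3 minus HSC in 1 model. No member differed (0 of 36 in either direction by edgeR, against 0.0141% of all genes higher and 0.0282% lower), and 1 (2.78%) had an unadjusted p under 0.05, against 6.93% of all genes; DESeq2 and limma-voom called 0 as well. The gene under 0.05 was Rrp12, with a difference of -0.62 ± 0.29 (edgeR adjusted p = 0.709), a smaller effect in MPP3. Next in the order of the unadjusted p were Bysl at -0.46 ± 0.23 and Nop56 at -0.29 ± 0.16, while Tsr1 had the highest value, 0.29 ± 0.19. The median over the members was -0.03. The 5 calls in HSC and the absence of calls in MPP3 thus do not show a difference between the cell types.

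MPP3 was also compared with HSC within each genotype. These comparisons use the same HSC libraries as those above, so a high value in 1 HSC group enters both, and the values are given side by side only. Between Jak2V617F MPP3 and Jak2V617F HSC, 0 of 36 members were called (edgeR; 3.69% of all genes higher and 4.68% lower), and 7 (19.4%) had an unadjusted p under 0.05, as did 20.4% of all genes; DESeq2 called 1 and limma-voom 0. Between WT MPP3 and WT HSC, 6 members were higher and 0 lower (6.67% of all genes higher and 6.91% lower), a share of 16.7%. At an unadjusted p under 0.05 there were 15 (41.7%), against 26.5% of all genes. The median log2 fold change was 0.17 in Jak2V617F and 0.24 in WT, with 31 and 32 of 36 positive. The medians over all genes were 0.0024 in Jak2V617F and -0.0054 in WT.

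The 6 members higher in WT MPP3 were Wdr12, Dkc1, Gnl3, Nop56, Polr1e and Fbl, 1 or 2 from each role except the small subunit. Gnl3 had the highest fold change of these, with 90.7, 114, 91.4 and 99.6 CPM in WT MPP3, against 81.2, 70.5, 62.4 and 74.3 CPM in WT HSC. The groups did not overlap (0.46 ± 0.13, edgeR adjusted p = 0.0266). Polr1e had 49.2, 54.9, 57.8 and 54.9 CPM in WT MPP3, against 49.5, 41.3, 39.9 and 32.0 CPM in WT HSC, with overlap in replicate 1 of each (0.41 ± 0.13, edgeR adjusted p = 0.0454). Dkc1, whose values in these libraries were given above, did not overlap (0.40 ± 0.11, edgeR adjusted p = 0.0257). The others had log2 fold changes of 0.35 (Wdr12), 0.37 (Nop56) and 0.34 (Fbl), with edgeR adjusted p of 0.0182, 0.041 and 0.0489. The groups did not overlap in 8 members, all higher in WT MPP3 (22.2%, against 9.25% of all genes). Without WT HSC replicate 2 no member was called, and over each library left out the count of members ran from 0 to 5. All genes called higher numbered 653 to 767 in the same fits, against 946 in the main fit.

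In Jak2V617F cells the same genes had smaller or similar values. Gnl3 had 126, 115, 95.9 and 112 CPM in Jak2V617F MPP3, against 97.4, 109, 72.3 and 94.0 CPM in Jak2V617F HSC (0.27 ± 0.13). Polr1e had 55.3, 62.6, 49.7 and 58.1 CPM in Jak2V617F MPP3, against 46.3, 54.0, 59.3 and 48.7 CPM in Jak2V617F HSC (0.12 ± 0.13), and the groups overlapped. Wdr12 had 0.23 ± 0.09, Dkc1 0.16 ± 0.11 and Nop56 0.08 ± 0.12, none of which passed. Fbl had the smallest adjusted p (0.34 ± 0.11, edgeR adjusted p = 0.0699). With the replicate block 2 members were called. Over the alternatives other than 1 library left out, 324 to 690 of all genes were called higher. Rrp12 ran the other way, with a log2 fold change of -0.23 ± 0.20 in Jak2V617F and 0.39 ± 0.20 in WT, neither of which passed (edgeR adjusted p = 0.609 and 0.244). Within batches Rrp12 was lower in Jak2V617F MPP3 than in Jak2V617F HSC in 4 of 4. The groups did not overlap in 3 members (Nob1, Tsr1 and Wdr12; 8.33%, against 6.14% of all genes).

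**Figure D5:**
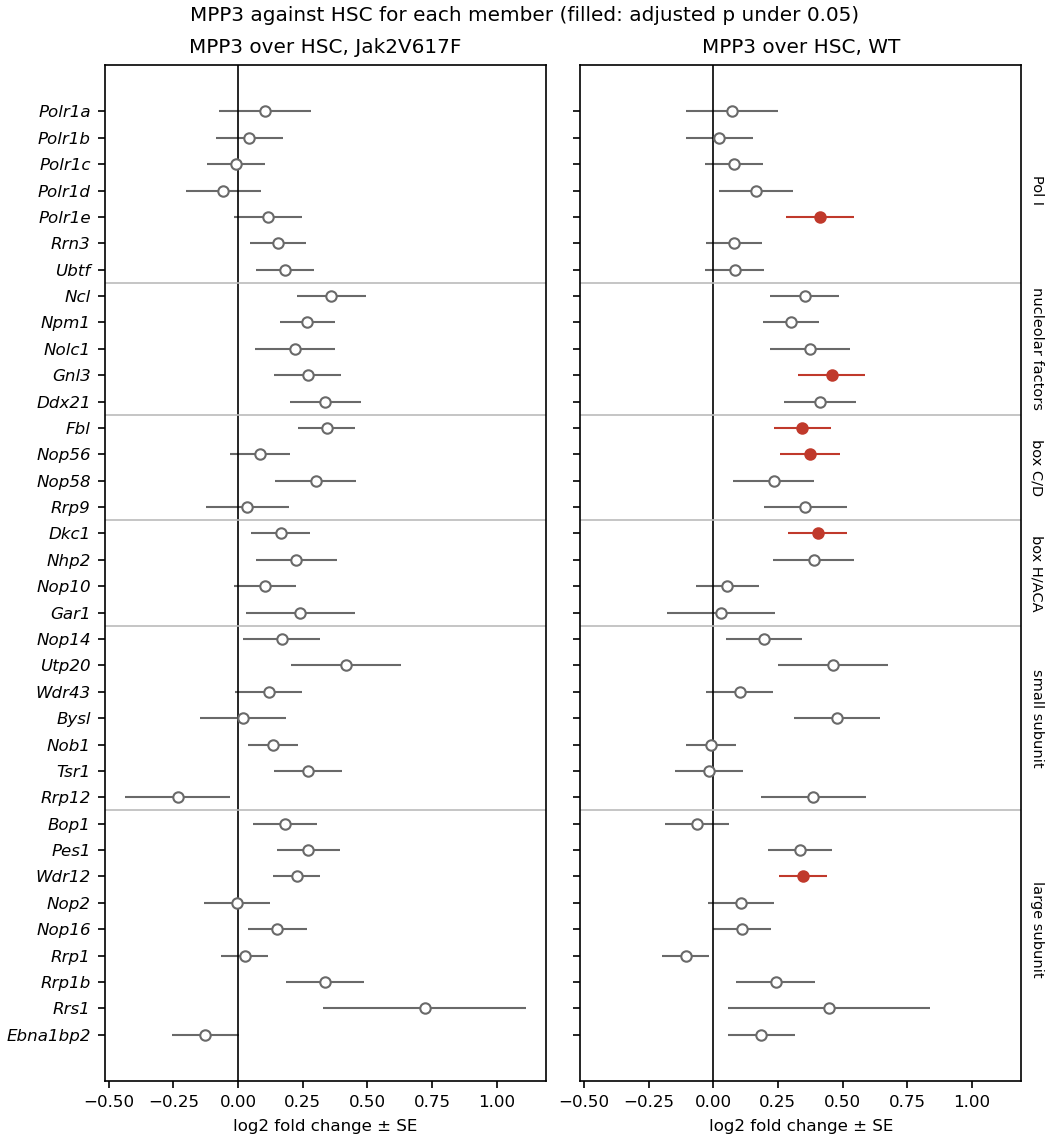
Log2 fold change ± SE (edgeR) of the 36 members, by role, for MPP3 over HSC in Jak2V617F (left) and in WT (right); filled points have an adjusted p under 0.05. In Jak2V617F 31 of 36 lie to the right of 0 and 0 are filled; in WT 32 of 36 lie to the right and 6 are filled.

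Over all 4 groups, the summed CPM of the 36 members was 8598 ± 787 in Jak2V617F HSC and 7035 ± 507 in WT HSC, and 9896 ± 1034 in Jak2V617F MPP3 and 8326 ± 389 in WT MPP3 (SD, n = 4 each). The mean of Jak2V617F HSC lay within the range of the WT MPP3 libraries, 7955 to 8874 CPM. Single Jak2V617F HSC libraries ran wider, from 7517 to 9378 CPM. No test compared Jak2V617F HSC with WT MPP3. Npm1 alone gave 1774 ± 96.0 CPM of the sum in Jak2V617F HSC and 1375 ± 141 CPM in WT HSC.

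The rest of the pathway was read from a list of 125 other ribosome biogenesis genes, of which 124 had a row and passed the filter. In HSC, 11 of 124 (8.87%) were higher and 0 lower in Jak2V617F, against 4.56% higher of all genes. The median log2 fold change was 0.19, and 102 (82.3%) were positive, against 44% of all genes. Those with the smallest adjusted p were Exosc8 (1.01 ± 0.16, edgeR adjusted p = 0.00144) and Exosc5 (0.34 ± 0.08, 0.0137) of the RNA exosome, which trims rRNA ends, the large-subunit factor Mrto4 (0.50 ± 0.11, 0.0103) and the small-subunit factor Utp4 (0.54 ± 0.12, 0.0104). Exosc8 averaged 143 ± 37.8 CPM in Jak2V617F HSC and 70.6 ± 9.35 CPM in WT HSC (SD, n = 4 each). In MPP3 none of the 124 were called between the genotypes (edgeR), and the median was 0.17. At an unadjusted p under 0.05 there were 19 (15.3%), near the 13.8% of all genes. Between WT MPP3 and WT HSC, 10 of 124 (8.06%) were higher, near the 6.67% of all genes, and 0 were lower. Those with the smallest adjusted p were Exosc5 (0.47 ± 0.08), Mrto4 (0.57 ± 0.11), Rpf1 (0.54 ± 0.13) and Rsl24d1 (0.41 ± 0.11), with edgeR adjusted p of 0.000559 to 0.0202. Between Jak2V617F MPP3 and Jak2V617F HSC, 3 of 124 (2.42%) were higher, below the 3.69% of all genes (Exosc5 at 0.39 ± 0.08, Wdr18 at 0.34 ± 0.09 and Rpf2 at 0.48 ± 0.14) and 0 lower. For the difference of the Jak2V617F effect between the cell types, 0 of 124 were called by edgeR and 3 had an unadjusted p under 0.05.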

How the data were processed

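Per the labels' protocols, RNA from 1 cell type a library was made into cDNA with a SMARTer Ultra Low kit and sequenced as paired reads. Per the submitters' processing notes, cutadapt 4.0, FastQC, HISAT2 and Salmon were used with GRCm38 (mm10); the sources used here give neither their roles and settings nor the strand protocol. The authors deposited Salmon gene tables with estimated counts (expected counts per gene, not normalized), which were rounded and tested. The TPM in the authors' deposited tables, scaled by effective length, were used for levels between genes; effective lengths, per the file headers in bases, were used in 1 alternative. Each table had 31716 rows; 1910 rows of single transcripts (0.697 to 0.796% of the counts) were left out.

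Names came from GENCODE M21. edgeR 4.0.16 in R 4.3.3 (TMM, filterByExpr, robust glmQLFit, glmQLFTest) fitted all 16 libraries with 1 coefficient per group. Scripts were tested on simulated data. SE is the log2 fold change over the square root of F. Near copies were sought with blastn 2.17.0 (at least 200 bases at 95% identity). The alternatives were limma-voom (limma 3.58.1), DESeq2 1.42.0, the replicate block, effective-length offsets, RLE size factors, no filter, the groups compared alone and libraries left out. Leaving out both Jak2V617F libraries of batch 3 was added after the data were seen.

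Per the labels the replicate number is the batch, so same-numbered libraries share a batch. The main fit has no term for it, and the replicate block is an alternative, given beside the results it changes. The deviations of same-numbered libraries from the group means correlated at -0.00133 to 0.0796 between genotypes in HSC, -0.00559 to 0.0982 in MPP3, 0.0832 to 0.164 between cell types in Jak2V617F and 0.0821 to 0.141 in WT. Between cell types, each MPP3 library correlated most with the same-numbered HSC library, in both genotypes. Between genotypes this held for numbers 1 and 4 in HSC and for 1 and 2 in MPP3.

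The members and lists were chosen with earlier results of these data known. Values by library are given for up to 10 members called in HSC, the member of highest TPM in each role and the 3 largest called changes between cell types.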

Additional observations from a re-analysis of the deposited data

Results flagged for a closer look

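In 9 of the 144 groups of 4 libraries (36 members in 4 groups), the highest or lowest library stood apart from the other 3 by Dixon's test at its 95% critical value; chance gives about 1 in 20. Replicate 3 of Jak2V617F HSC was low in Dkc1 (281 CPM, median of the other 3 at 364) and Utp20 (21.1 CPM, against 44.0), and replicate 3 of Jak2V617F MPP3 was low in Ddx21 (175 CPM, against 224). These are the batch 3 libraries in which the members' median level was lowest in both Jak2V617F groups. Replicate 1 of WT HSC was high in Nhp2 (198 CPM, against 136), Gar1 (29.6 CPM, against 18.0) and Rrn3 (161 CPM, against 142). Handling-response genes were also highest in that library (summed CPM 6578), as in replicate 1 of every group. Replicate 1 of Jak2V617F HSC was low in Nob1 (141 CPM, against 163). Replicate 4 of WT MPP3 was low in Gar1 (16.3 CPM, against 22.7) and high in Wdr12 (213 CPM, against 187). Which of these are technical was not tested.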

How the results depend on the processing

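The direction of the members as a group held: their median log2 fold change over all alternatives was 0.24 to 0.36 for Jak2V617F over WT in HSC, 0.18 to 0.28 in MPP3, 0.10 to 0.22 for MPP3 over HSC in Jak2V617F and 0.16 to 0.30 in WT. Each of these fits spans several batches. In batch 3 alone the median difference of Jak2V617F from WT was 0.03 in HSC, with 21 of 36 members positive. In MPP3 of that batch it was 0.02, with 20 of 36 positive. The counts of calls did not hold, and the causes were not tested. For Jak2V617F over WT HSC, members called higher numbered 9 with the replicate block, 12 with DESeq2, 3 with the groups compared alone, 1 to 16 with 1 library left out, 0 without Jak2V617F HSC 1 and 4, and 16 without both Jak2V617F libraries of batch 3. The number of all genes called higher was 1002 (DESeq2), 422 to 939 (1 library out), 180 (1 and 4 out) and 990 (batch 3 out). With the replicate block or the groups compared alone it lay within 180 to 1002. The number of all genes called lower was 611 (limma-voom), 672 (DESeq2), 161 to 473 (1 library out) and 86 (1 and 4 out).

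For Jak2V617F over WT MPP3, members higher were 2 with DESeq2, 0 to 2 with 1 library out and 3 with batch 3 out. For all genes, calls higher and lower were 25 and 57 (replicate block), 0 and 1 (no filter), 4 and 12 (effective-length offsets), 163 and 225 (DESeq2), 0 and 0 (groups alone), 125 and 159 (batch 3 out), and 0 to 108 and 1 to 101 (1 library out); limma-voom gave 0 higher. For MPP3 over HSC in Jak2V617F, members higher were 2 with the replicate block, 1 with effective-length offsets, 1 with DESeq2 and 0 to 1 with 1 library out. All genes higher were 357 to 440 with 1 library out. Over the other alternatives they were 324 to 690, with 324 without HSC 1 and 4. In WT, members higher were 3 with effective-length offsets, 10 with DESeq2 and 0 to 5 with 1 library out. All genes higher in WT were 653 to 767 with 1 library out and 833 to 1203 over the other alternatives. For the difference, all genes higher and lower were 0 and 1 (block), 26 and 51 (DESeq2), 0 and 0 (1 and 4 out), 0 to 2 and 1 to 4 (1 library out); limma-voom gave 1 higher and effective-length offsets 2 lower.

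Of the 5 members called in HSC, Rrp12 lost its call only without Jak2V617F HSC 1 and 4 (edgeR adjusted p = 0.146; range over its 17 alternatives 0.00045 to 0.146). Dkc1 lost it in 5 of 17 alternatives, effective-length offsets among them (edgeR adjusted p = 0.118), Npm1 in 7, Nhp2 in 8 and Fbl in 9. Signs turned in small values that passed no test. Without Jak2V617F HSC 1 and 4, the log2 change in HSC was -0.081 (Rrn3), -0.032 (Wdr43), -0.12 (Tsr1) and 0.0078 (Rrp1), and that of MPP3 over HSC in Jak2V617F was -0.0053 (Polr1e) and -0.045 (Rrp1). Polr1d in MPP3 gave 0.0136 (replicate block), 0.00204 (effective-length offsets), 0.0134 (limma-voom) and 0.069 (batch 3 out), and for MPP3 over HSC in Jak2V617F 0.097 (batch 3 out). Nob1 in WT gave 0.019 without the filter and 0.024 with effective-length offsets. With 1 library left out, ranges that spanned 0 were -0.0092 to 0.29 (Polr1a) and -0.0016 to 0.14 (Rrp9) in HSC. In MPP3 they were -0.088 to 0.15 (Polr1d), -0.0069 to 0.13 (Polr1e) and -0.012 to 0.12 (Nop56), and for MPP3 over HSC in WT -0.0040 to 0.13 (Nop10) and -0.069 to 0.048 (Nob1). For MPP3 over HSC in Jak2V617F they were -0.14 to 0.0146 (Polr1d), -0.038 to 0.14 (Nop56), -0.011 to 0.18 (Nop10) and -0.033 to 0.062 (Rrp1).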
